A study of Mus musculus with 6 samples.

Results

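The 9 plexin genes of the mouse (*Plxna1* to *Plxna4*, *Plxnb1* to *Plxnb3*, *Plxnc1* and *Plxnd1*) were followed in neuronal cultures in which *Pla2g4e*, which encodes a cytosolic phospholipase A2, was knocked down. The genes were chosen by symbol, with earlier results of these data known, and are 9 of the 55357 genes counted. *Plxna1*, *Plxna2*, *Plxna3* and *Plxnd1* fell after sh*Pla2g4e*, to between 48% and 68.2% of their shCtrl level. *Plxna4*, the class B genes and *Plxnc1* did not pass the test, and no plexin rose.

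The data were 6 polyA RNA-seq libraries of wild-type primary cultures of cortical and hippocampal neurons from C57BL/6N embryos. Of these, 3 came from cultures that received a lentivirus with a control or scrambled shRNA (shCtrl) and 3 from cultures that received a lentivirus with an shRNA against *Pla2g4e* (sh*Pla2g4e*). Both viruses were given at DIV4 and all cultures were collected at DIV14, so that every sample carries a transduction. The knockdown rests on 1 shRNA sequence, named sh2, and its dose was set by the study from the fall of the *Pla2g4e* transcript. The labels do not say whether the replicates were separate preparations, so that the p-values measure the spread between these libraries, which may be technical.

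Plexins are large single-pass receptors on the cell surface and bind semaphorins, secreted or membrane-bound cues that mostly repel or collapse growing axons and also shape dendrites and spines. Secreted class 3 semaphorins reach the class A plexins through a neuropilin co-receptor, while *Plxnd1*, the class B plexins and *Plxnc1* can bind their semaphorin directly. The cytoplasmic part of a plexin holds a GTPase-activating domain for small GTPases of the Rap and R-Ras families, and signals from there reach the cytoskeleton. In the developing cortex and hippocampus these receptors are known for axon guidance, pruning and the placing of synapses.

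The shRNA is shown because bases 2 to 8 of its guide strand, the seed, can also pair with other mRNAs. The sh2 target has 19 bases and lies in exon 11 of *Pla2g4e*, in the coding sequence, on the minus strand at chr2:120182753-120182771 of GRCm38. In the target and in the plexin transcripts, capitals mark the sequence that pairs with the seed, and in the guide they mark the seed itself.
sh2 target in *Pla2g4e*: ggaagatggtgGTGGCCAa
sh2 guide strand: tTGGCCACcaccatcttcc
*Plxna1*, 3′ UTR: acagctaactGTGGCCAggaccattat
*Plxna2*, 3′ UTR: aaaaagaagaGTGGCCAaggggcacaa
*Plxnd1*, 3′ UTR: attgggagagGTGGCCAtatcccagaa

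These 3 matches are the ones in a plexin 3′ UTR, searched on the sense strand of the longest coding transcript of each gene in GENCODE vM21. The match in *Plxna1* lies at chr6:89317875-89317881 (minus strand, exon 32), 1495 nt after the end of the coding sequence. In *Plxna2* it lies at chr1:194814735-194814741 (plus strand, exon 32), 2574 nt after it. In *Plxnd1* it lies at chr6:115955389-115955395 (minus strand, exon 36), 345 nt after it. All 3 sit in the last exon of their transcript and in genes that fell.

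The libraries held 20387986 to 22561667 counted reads in shCtrl and 17054717 to 23570180 in sh*Pla2g4e*, and the plexins other than *Plxnb3* had at least 1121 reads in each library. *Pla2g4e* itself stood at 38.0, 35.1 and 35.4 CPM (reads relative to the library total after TMM scaling) in shCtrl 1 to 3 and at 21.8, 14.1 and 18.7 CPM in sh*Pla2g4e* 1 to 3. The groups did not overlap, and the mean fell to 50.5% (log2 fold change −0.99 ± 0.13 SE, adjusted p = 1.24e-04). Differential expression was tested with edgeR's quasi-likelihood test, and p-values were Benjamini-Hochberg adjusted over the 21876 genes that reached 6 reads in some library. At the threshold of 0.01 there were 876 lower and 543 higher DEGs, and with scaling by library size alone 609 lower and 796 higher. Of all genes tested 6.49% were DEGs, 4.0% lower and 2.48% higher.

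The 9 plexins were chosen with earlier results of these data known, so that their count is not independent evidence. All were tested, and 4 were lower DEGs and 0 higher, against those shares of 4.0% and 2.48%. No plexin was higher at an unadjusted p below 0.05 either, where 12.9% of all genes were lower and 12.8% higher. Limma after voom and DESeq2 also gave 4 lower and 0 higher plexins, with 4.23% and 5.55% of all genes lower and 2.3% and 3.14% higher. Abundance bears on such a share, since among the 10958 genes whose log2 CPM averaged 3 or more, 8 plexins included, 7.66% were lower and 3.43% higher. The same 4 plexins were those whose sh*Pla2g4e* libraries all lay below their shCtrl libraries, as was so for 14.6% of all genes (15.5% the other way round and 30.0% in either direction). The median log2 fold change of the 9 plexins was −0.21 and that of all genes tested 0.03. RNA from whole cultures cannot tell fewer cells of a type apart from less RNA per cell.

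The class A plexins are the partners of neuropilins in class 3 semaphorin signalling, and *Plxna2* and *Plxna4* also bind class 6 semaphorins. *Plxna2* was at 335.7, 343.3 and 311.5 CPM in shCtrl 1 to 3 and at 170.5, 149.5 and 155.5 CPM in sh*Pla2g4e* 1 to 3. Every sh*Pla2g4e* library was far below every shCtrl library. Its mean fell from 330.2 ± 16.6 to 158.5 ± 10.8 CPM (SD, n = 3), a log2 fold change of −1.06 ± 0.08 SE with a 95% interval of −1.23 to −0.88 (edgeR, adjusted p = 8.55e-07). *Plxna1* was at 330.3, 305.8 and 282.6 CPM in shCtrl and at 194.8, 182.9 and 196.1 CPM in sh*Pla2g4e*. The groups were again apart, with the sh*Pla2g4e* libraries closer together than the shCtrl libraries, and the mean went from 306.2 ± 23.9 to 191.3 ± 7.31 CPM. Its log2 fold change was −0.68 ± 0.08 SE (95% interval −0.85 to −0.51, adjusted p = 4.85e-05). *Plxna3*, on the X chromosome, was the lowest class A plexin in CPM.

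*Plxna3* was at 90.8, 90.1 and 96.8 CPM in shCtrl and at 61.1, 64.2 and 64.0 CPM in sh*Pla2g4e*, with little spread in either group. It fell to 68.2% (log2 fold change −0.55 ± 0.08 SE, 95% interval −0.72 to −0.39, adjusted p = 1.96e-04), and the interval lies above that of *Plxna2*. *Plxna4* was at 190.9, 188.8 and 146.4 CPM in shCtrl and at 192.6, 208.5 and 150.9 CPM in sh*Pla2g4e*. Its groups overlapped, with replicate 3 the lowest library of both. The log2 fold change was 0.07 ± 0.12 SE (adjusted p = 0.777), and its 95% interval of −0.18 to 0.32 leaves out falls as large as those of *Plxna1*, *Plxna2* and *Plxna3*.

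The ratios of *Plxna4* to the other class A plexins were also taken in each library, and describe the same values again. Per length of merged exon, the ratio of *Plxna4* to *Plxna2* was 0.693, 0.670 and 0.572 in shCtrl and 1.38, 1.70 and 1.18 in sh*Pla2g4e*. Which of both genes is the higher in sh*Pla2g4e* depends on the length, as per length of the longest coding transcript *Plxna2* was at 15.4, 13.5 and 14.1 and *Plxna4* at 15.0, 16.2 and 11.7. The difference in mean log2 ratio, sh*Pla2g4e* against shCtrl, was 1.13, against 0.74 for *Plxna4* to *Plxna1* and 0.62 for *Plxna4* to *Plxna3*. Libraries of the groups did not overlap in any of the 3 ratios. The two-sided exact permutation p was 0.1 for each (0.1 after adjustment over the 3 ratios), the smallest that 3 against 3 libraries can give, so that this test could not have passed 0.05.

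*Plxnd1*, the receptor of semaphorin 3E and known from vessels as well as neurons, was at 192.9, 178.3 and 169.8 CPM in shCtrl and at 111.8, 108.4 and 118.4 CPM in sh*Pla2g4e*. The groups did not overlap. It fell to 62.6% of shCtrl, close to *Plxna1* (log2 fold change −0.68 ± 0.08 SE, 95% interval −0.85 to −0.51, adjusted p = 4.34e-05). Endothelial and mural markers were low in these cultures, at 27.4 to 68.4 CPM summed over the list in shCtrl and 29.1 to 73.8 CPM in sh*Pla2g4e*, with *Cldn5* at 0 reads.

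**Figure D1:**
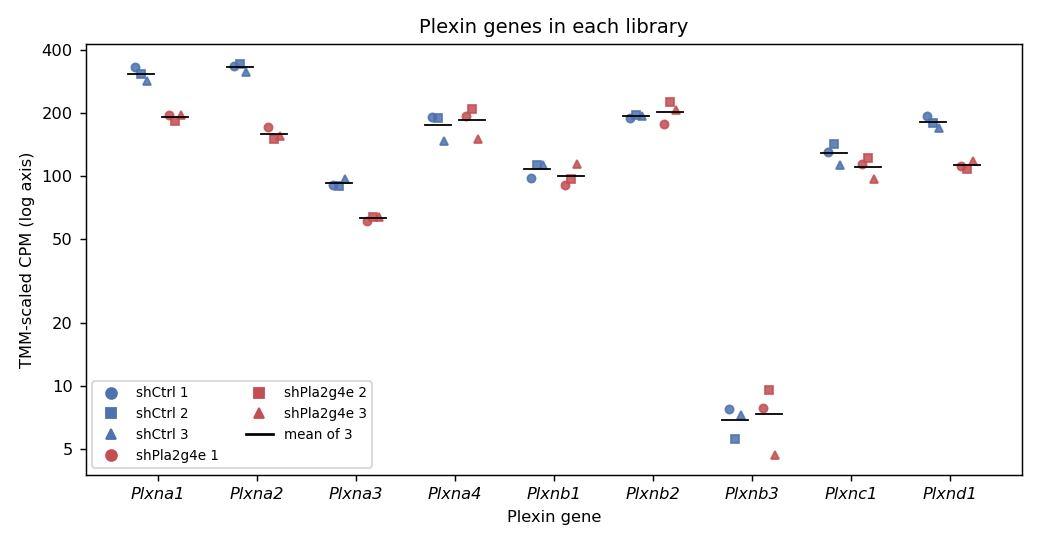
Level of each plexin gene in each library, in TMM-scaled CPM on a log axis, with blue symbols for shCtrl, red symbols for sh*Pla2g4e*, the symbol's shape for the replicate number and a line at the mean of 3. The red symbols lie below all blue ones for *Plxna1*, *Plxna2*, *Plxna3* and *Plxnd1*, and the colours mix for the other 5 genes.

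The class B plexins bind class 4 and class 5 semaphorins. *Plxnb1*, the receptor of semaphorin 4D, was at 97.6, 112.3 and 113.3 CPM in shCtrl and at 91.1, 96.8 and 113.7 CPM in sh*Pla2g4e* (log2 fold change −0.10, 95% interval −0.30 to 0.10, adjusted p = 0.565). *Plxnb2*, used by dividing precursors and by neurons, was at 188.5, 196.1 and 192.7 CPM in shCtrl and at 176.6, 224.8 and 207.0 CPM in sh*Pla2g4e* (0.08, −0.11 to 0.26, adjusted p = 0.667). Both genes overlapped between groups, and *Plxnb2* varied more in sh*Pla2g4e* (SD 24.4 CPM) than in shCtrl (SD 3.81 CPM). *Plxnb3*, a receptor of semaphorin 5A, had only 82 to 207 reads per library. It was at 7.76, 5.59 and 7.28 CPM in shCtrl and at 7.82, 9.57 and 4.69 CPM in sh*Pla2g4e*, and its 95% interval of −0.37 to 0.58 is the widest of the 9. Its libraries spread from 4.69 to 9.57 CPM within sh*Pla2g4e*, and changes within that interval could not be told from none.

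*Plxnc1*, which binds semaphorin 7A, was at 130.1, 141.9 and 112.8 CPM in shCtrl and at 113.7, 121.4 and 96.8 CPM in sh*Pla2g4e*. The groups overlapped, yet in each pair of libraries with the same replicate number the sh*Pla2g4e* library was the lower, by 0.19, 0.23 and 0.22 on the log2 scale. The log2 fold change was −0.21 (95% interval −0.42 to 0.0006, adjusted p = 0.196), and with the replicate number as a block the adjusted p was 0.0127. Neither passed the threshold.

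The 4 plexins that fell were lower in all 3 pairs of libraries with the same replicate number. The log2 ratio of sh*Pla2g4e* to shCtrl within replicates 1 to 3 was −0.76, −0.74 and −0.53 for *Plxna1*, −0.98, −1.20 and −1.002 for *Plxna2*, −0.57, −0.49 and −0.60 for *Plxna3* and −0.79, −0.72 and −0.52 for *Plxnd1*. It was 0.01, 0.14 and 0.04 for *Plxna4* and changed sign between replicates for *Plxnb1*, *Plxnb2* and *Plxnb3*. The 4 falls passed the threshold without any single library, with log2 fold changes of −0.73 to −0.62 for *Plxna1*, −1.11 to −1.02 for *Plxna2*, −0.57 to −0.52 for *Plxna3* and −0.72 to −0.62 for *Plxnd1*. The highest adjusted p among those fits was 0.00252, for *Plxna3* without sh*Pla2g4e* replicate 1.

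**Figure D2:**
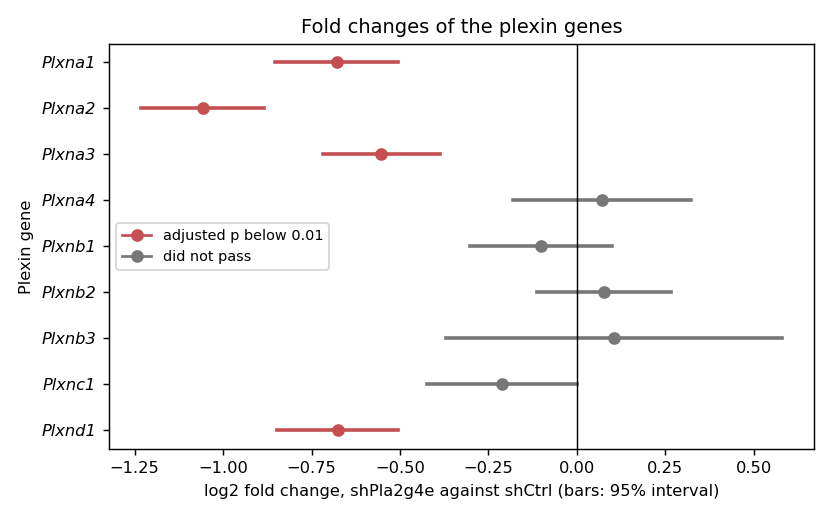
Log2 fold change of each plexin, sh*Pla2g4e* against shCtrl, with bars for the 95% interval, in red where the adjusted p was below 0.01 and in grey elsewhere. *Plxna2* stands lowest at −1.06, *Plxna1*, *Plxna3* and *Plxnd1* lie between −0.68 and −0.55, and the intervals of the other 5 genes reach 0.

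Levels of different plexins were compared per kilobase of merged exon, as the CPM divided by that length. In shCtrl *Plxna1* was the highest at 33.8 ± 2.64 (SD, n = 3), followed by *Plxnb2* at 24.9 ± 0.494 and *Plxnd1* at 24.7 ± 1.604, whose libraries overlapped. *Plxna2* came next at 19.2 ± 0.969 and was apart from both neighbours. *Plxnc1* (15.4 ± 1.75), *Plxna4* (12.4 ± 1.78), *Plxna3* (11.7 ± 0.472) and *Plxnb1* (11.2 ± 0.916) followed, each overlapping with its neighbour among these 4. *Plxnb3* closed the order at 1.06 ± 0.176, apart from the rest.

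In sh*Pla2g4e* the order changed at the top and in the middle. *Plxnb2* was the highest at 26.3 ± 3.16, above *Plxna1* at 21.1 ± 0.807 and *Plxnd1* at 15.5 ± 0.698, with no overlap between neighbours. *Plxnc1* (13.3 ± 1.51), *Plxna4* (13.05 ± 2.11), *Plxnb1* (10.5 ± 1.23) and *Plxna2* (9.23 ± 0.630) came next, each overlapping with its neighbour among these 4. *Plxna3* (8.01 ± 0.223) and *Plxnb3* (1.13 ± 0.381) were last, with no overlap from *Plxna2* on. *Plxna2* thus went from rank 4 to rank 7. The place of *Plxna2* depends on the length used, since its merged exons add up to 17174 bases and its longest coding transcript to 11040. With the latter length it had rank 2 in shCtrl, at 29.9 ± 1.51 and overlapping with *Plxnb2*, and rank 5 in sh*Pla2g4e*.

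Summed over the 9 genes on this scale, the plexin level was 158.9, 158.0 and 146.7 in shCtrl and 115.4, 121.9 and 116.7 in sh*Pla2g4e*, or 76.4% of the shCtrl mean. Class A made up 49.96% ± 0.988 of the sum in shCtrl and 43.6% ± 1.93 in sh*Pla2g4e*, and class B 24.1% ± 1.66 and 32.1% ± 2.58. The class B sum itself was 37.2 ± 1.24 in shCtrl and 37.9 ± 3.79 in sh*Pla2g4e*. The share of *Plxnb2* alone was 16.2% and then 22.2%, while that of *Plxna2* was 12.4% and then 7.84%. These sums describe the make-up of the receptors' mRNA and carry no test.

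**Figure D3:**
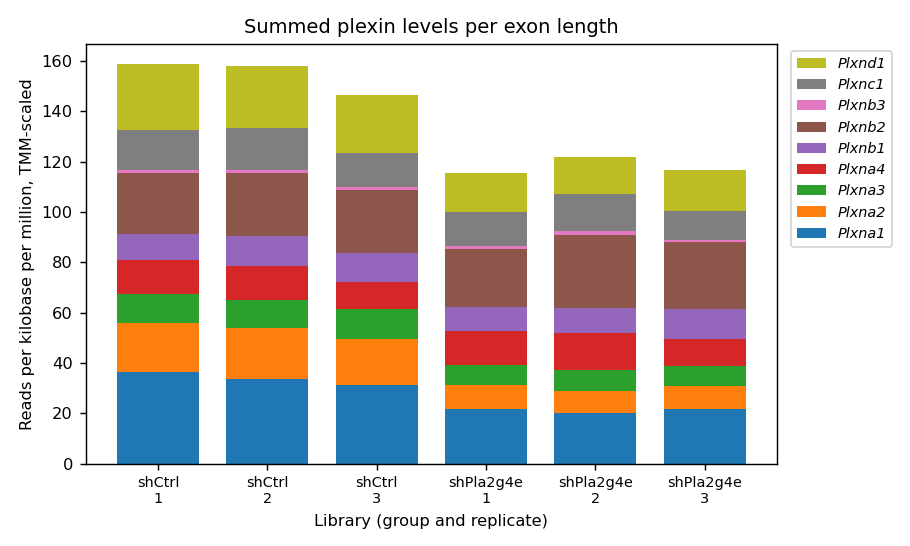
Stacked level of the 9 plexins in each library, in TMM-scaled CPM per kilobase of exon, with the y axis from 0. The 3 shCtrl bars reach 146.7 to 158.9 and the 3 sh*Pla2g4e* bars 115.4 to 121.9, with the *Plxna1*, *Plxna2* and *Plxnd1* blocks thinner and the *Plxnb2* block about as thick.

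The transcripts of the plexins differed in where they hold GTGGCCA. A match in the 3′ UTR was present in 3 of the 4 plexins that fell and in 0 of the other 5. Of the 15655 tested genes with an annotated 3′ UTR, 13.4% hold one there. That share is not matched for length, as the median 3′ UTR of these genes has 1121 nt. Those of *Plxna1*, *Plxna2* and *Plxnd1* have 3062, 4708 and 929 nt. *Plxna3* fell and holds none, in its 3′ UTR of 1147 nt or in its coding sequence. *Plxna4* has the longest 3′ UTR of the 9, with 6221 nt, and holds none either. Matches in the coding sequence were found in 2 of the 4 plexins that fell and in 3 of the other 5, with 4 in *Plxnb2*, 2 each in *Plxnb1*, *Plxnb3* and *Plxnd1* and 1 in *Plxna1*. Coding sequences of this length often hold the match, as 62.4% of the 798 tested genes with one at least as long as the shortest of the plexins did. The longest stretch shared with the sh2 target was 8 to 11 bases in the 9 plexins.

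Over all tested coding genes, the 2103 genes with a match in the 3′ UTR had a median log2 fold change of −0.15, and 17.5% of them were lower and 1.62% higher DEGs. The 3392 genes with a match only in the coding sequence had a median of −0.04, with 5.75% lower and 3.04% higher. The 10321 genes with neither had a median of 0.04, with 2.86% lower and 3.31% higher. These groups were not matched for abundance or for the length of the 3′ UTR. *Plxna1*, *Plxna2* and *Plxnd1* belong to the first of these groups, and the part of the seed match in their falls was not tested. A match says only that these letters occur in the annotated transcript.

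**Figure D4:**
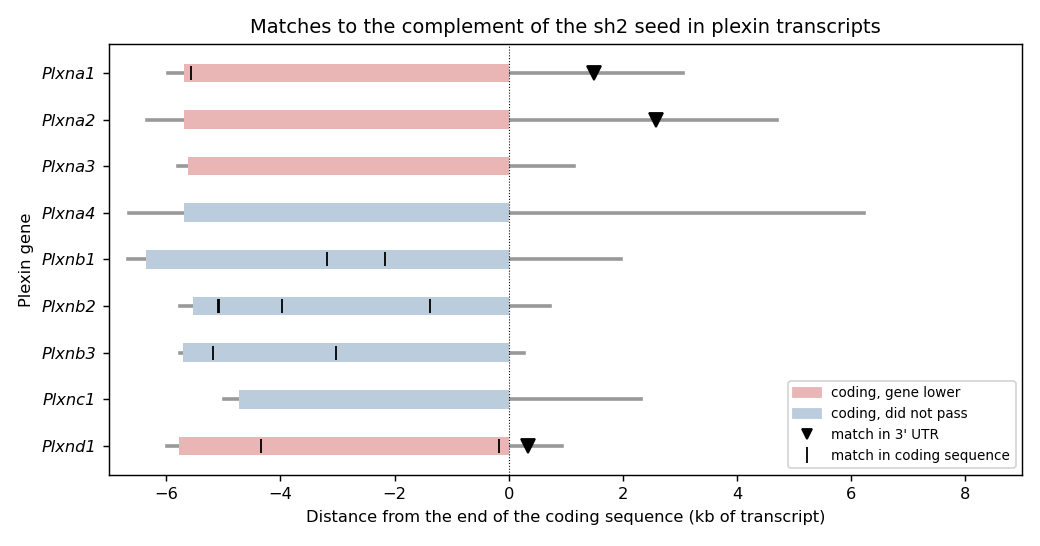
Longest coding transcript of each plexin aligned at the end of its coding sequence, with the distance in kb of transcript, a thick bar for the coding sequence (red for genes that fell, blue for the others), thin lines for the UTRs and marks for matches to the complement of the sh2 seed. Triangles, the matches in a 3′ UTR, occur in *Plxna1*, *Plxna2* and *Plxnd1*, and ticks in the coding sequence occur in 5 genes.

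Reads were counted without regard to strand, so that reads in exons shared with another gene cannot be assigned by strand. Whether such reads were added to a plexin or left out was not tested. Of the exon bases of *Plxna1*, 10.7% overlap *Gm26811* on the other strand, which itself was at 3.82 CPM in shCtrl and 2.16 CPM in sh*Pla2g4e*. The overlap on the other strand was 2.68% for *Plxnb1* and 0.78% for *Plxna4*, that on the same strand 1.38% for *Plxnc1*, and the other plexins had none on either strand.

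Semaphorins are the ligands. Of 20 semaphorin genes 2 were lower and 1 higher DEGs, where 4.0% and 2.48% of all genes were, and 7.66% and 3.43% of the more abundant ones. Their median log2 fold change was −0.04. *Sema3a*, the class 3 semaphorin that repels cortical axons through neuropilin 1 and class A plexins, fell from 54.5 ± 5.42 to 29.1 ± 5.24 CPM (−0.90, adjusted p = 1.29e-04). *Sema4g*, a membrane-bound ligand of *Plxnb2*, fell from 229.8 ± 22.3 to 144.9 ± 6.398 CPM (−0.66, adjusted p = 9.66e-05). *Sema3d* rose from 5.88 ± 0.632 to 11.9 ± 4.81 CPM (1.02, adjusted p = 0.00666), and its call was lost without shCtrl 1 (adjusted p = 0.0256), shCtrl 2 (0.0412), shCtrl 3 (0.0146) or sh*Pla2g4e* 2 (0.0380) and with limma after voom (0.0143), at least 10 reads in every library (0.0108) or filterByExpr (0.0102). With the replicate block 4 semaphorins were lower and 2 higher, where 9.02% and 6.50% of all genes were.

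The co-receptor list holds genes whose products act beside a plexin and also other semaphorin receptors, *Itgb1* among them. Of its 15 genes 14 were tested, *Timd2* having no reads, and 2 were lower and 0 higher, where 4.0% and 2.48% of all genes were. Among the more abundant genes, which hold 9 of the 14, 7.66% were lower and 3.43% higher. The median log2 fold change was −0.24. At an unadjusted p below 0.05 edgeR had 5 lower and 3 higher (all genes 12.9% and 12.8%). Limma after voom called 3 lower and 0 higher (all genes 4.23% and 2.3%), and DESeq2 called 4 lower and 0 higher (all genes 5.55% and 3.14%). *L1cam*, a cell adhesion molecule that joins neuropilin 1 in the semaphorin 3A receptor, fell from 396.1 ± 32.5 to 270.6 ± 12.4 CPM (−0.55, adjusted p = 3.64e-04). *Itgb1*, the beta 1 integrin and a receptor of semaphorin 7A, fell from 123.8 ± 10.7 to 81.9 ± 8.26 CPM (−0.60, adjusted p = 4.36e-04). The neuropilins did not pass the test that *Plxna1*, *Plxna2* and *Plxna3* passed. *Nrp1* was at 43.1 ± 3.21 and 39.1 ± 1.90 CPM (adjusted p = 0.370), and *Nrp2* at 61.1 ± 11.5 and 74.4 ± 10.2 CPM (0.29, adjusted p = 0.161). With the replicate block *Nrp2* passed as higher (adjusted p = 0.00245), and the list then had 5 lower and 2 higher members, where 9.02% and 6.50% of all genes passed. Without shCtrl 3 the list had 4 lower members, where 4.19% of all genes were lower.

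Downstream of the receptors, 6 of 36 effector genes were lower and 0 higher, where 4.0% and 2.48% of all genes were. Among the more abundant genes, which hold 34 of the 36, 7.66% were lower and 3.43% higher. At an unadjusted p below 0.05, 13 effectors were lower and 1 higher (all genes 12.9% and 12.8%), by limma after voom 6 and 0 (4.23% and 2.3%) and by DESeq2 8 and 0 (5.55% and 3.14%). The median log2 fold change was −0.11. *Rras2* and *Rap1b*, small GTPases of the families that the plexin GTPase-activating domain acts on, fell the most of the 6. *Rras2* went from 39.3 ± 1.04 to 13.8 ± 0.444 CPM (−1.51, adjusted p = 1.68e-07) and *Rap1b* from 106.4 ± 5.94 to 63.1 ± 3.09 CPM (−0.75, adjusted p = 1.66e-05), while *Rras* and *Rap1a* had log2 fold changes of 0.03 and −0.06 (adjusted p = 0.915 and 0.797). *Limk1*, the kinase that inactivates cofilin, fell from 79.2 ± 3.77 to 56.3 ± 3.02 CPM (−0.49, adjusted p = 7.94e-04).

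The other 3 effectors that fell were *Farp1*, a Rac exchange factor that binds class A plexins (−0.44, adjusted p = 0.00176), and the collapsin response mediators *Crmp1* (−0.50, adjusted p = 0.00189) and *Dpysl5* (−0.46, adjusted p = 0.00777). Their calls did not hold in every leave-one-out fit. *Farp1* missed the threshold without shCtrl 2 (adjusted p = 0.0205), sh*Pla2g4e* 1 (0.0133) or sh*Pla2g4e* 2 (0.0108), and *Crmp1* without shCtrl 1 (0.0102), shCtrl 2 (0.0225) or sh*Pla2g4e* 1 (0.0102). *Dpysl5* missed it without shCtrl 1 (0.0355), shCtrl 2 (0.0689), sh*Pla2g4e* 1 (0.0255), sh*Pla2g4e* 2 (0.0103) or sh*Pla2g4e* 3 (0.0217), and also with upper-quartile scaling (0.0116), library size alone (0.0127), at least 10 reads in every library (0.0152) or filterByExpr (0.0129). Under each of these 4 settings the list had 5 lower members, where 3.24%, 2.78%, 4.99% and 4.68% of all genes were lower. The list's count was 3 without shCtrl 2 or sh*Pla2g4e* 1, where 2.07% and 2.57% of all genes were lower, and 10 with the replicate block, where 9.02% of all genes were lower.

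Among 24 receptors of the other guidance systems, for ephrins, slits and netrins, 7 were lower and 1 higher, where 4.0% and 2.48% of all genes and 7.66% and 3.43% of the more abundant ones were. With the replicate block 9 were lower and 2 higher, where 9.02% and 6.50% of all genes were. The median log2 fold change of these receptors was −0.23, against −0.21 for the plexins. *Dcc*, the netrin receptor of growing axons, fell from 54.2 ± 5.81 to 26.9 ± 3.17 CPM (−1.01, adjusted p = 1.61e-05), and *Neo1*, its relative, from 301.7 ± 35.8 to 191.2 ± 14.1 CPM (−0.66, adjusted p = 2.38e-04). *Ephb6*, an Eph receptor without kinase activity, fell from 152.1 ± 14.4 to 77.8 ± 7.15 CPM (−0.97, adjusted p = 6.43e-06), *Unc5d*, a repulsive netrin receptor, from 83.4 ± 8.86 to 46.4 ± 2.99 CPM (−0.84, adjusted p = 2.10e-05) and *Robo1*, a slit receptor, from 50.2 ± 4.49 to 29.2 ± 2.95 CPM (−0.78, adjusted p = 1.00e-04). *Epha10* rose from 51.5 ± 8.85 to 75.05 ± 0.468 CPM (0.54, adjusted p = 0.00231). The falls of *Unc5a* (−0.48, adjusted p = 0.00196) and *Unc5c* (−0.43, adjusted p = 0.00689) and the rise of *Epha10* did not hold in every leave-one-out fit. *Unc5a* missed the threshold without shCtrl 1 (0.0123), shCtrl 2 (0.0173), sh*Pla2g4e* 1 (0.0126) or sh*Pla2g4e* 2 (0.0102), and *Epha10* without shCtrl 2 (0.0248), shCtrl 3 (0.0124) or sh*Pla2g4e* 1 (0.0110). *Unc5c* missed it without shCtrl 1 (0.0280), shCtrl 2 (0.0552) or any sh*Pla2g4e* library (0.0134 to 0.0190), and with upper-quartile scaling (0.0116) or library size alone (0.0196), which left 6 lower members (all genes 3.24% and 2.78%).

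**Figure D5:**
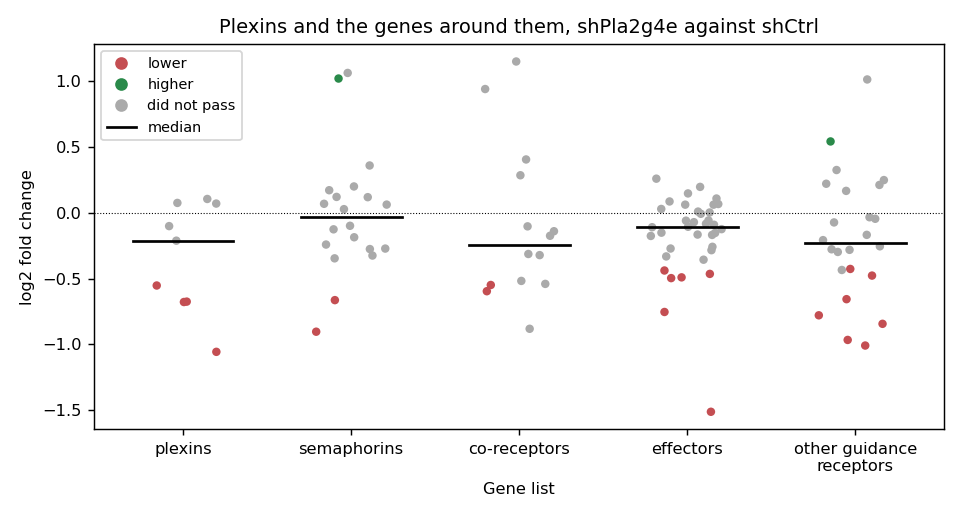
Log2 fold change of every tested member of the plexin list and of 4 lists around it, one point a gene, red for lower DEGs, green for higher DEGs, grey for the rest and a line at the list's median. The red points number 4 of 9 plexins, 2 of 20 semaphorins, 2 of 14 co-receptors, 6 of 36 effectors and 7 of 24 other guidance receptors.

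The genes whose log2 CPM over the 6 libraries followed *Plxna2* most closely, among 10957 compared, were *Mrpl47*, *Gm13509*, *Grm2*, *Ppp1r12b* and *Ino80e*, with Pearson's r of 0.997 to 0.998. The 6 libraries are of 2 groups, so that r mostly reads the step between them and not its size. *Mrpl47*, for a mitochondrial ribosomal protein, was at 16.5 and 14.4 CPM (log2 fold change −0.19, adjusted p = 0.311), whereas *Grm2*, the metabotropic glutamate receptor 2, went from 48.3 to 22.1 CPM (−1.12, adjusted p = 4.32e-06).

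Markers of the cells in the culture moved in part with the plexins. Pan-neuronal markers summed to 4995 to 5375 CPM in shCtrl and 4598 to 5036 CPM in sh*Pla2g4e*, with *Map2* and *Rbfox3* lower and *Nefl* and *Nefm* higher among 8. The summed glutamatergic neuron markers went from 2089 to 2267 down to 1515 to 1818 CPM, with *Slc17a7* and *Neurod6* lower and *Slc17a6* higher among 6. *Slc17a7* alone went from a mean of 744.8 to 299.6 CPM, while *Camk2a* was at 1051 and 1065 CPM. Of the 6 genes 3 had a log2 fold change below 0 and 3 above, so that the whole list did not share the fall. GABAergic neuron markers were at 723.0 to 810.2 and 701.1 to 800.9 CPM, with *Lhx6* and *Slc32a1* lower and *Npy* and *Sst* higher among 8. Astrocyte markers stood at 2536 to 3244 and 1746 to 2745 CPM, with *Aqp4* and *Slc1a2* lower among 8. Of the oligodendrocyte lineage markers (524.8 to 593.1 and 546.8 to 651.0 CPM), the microglia markers (4.58 to 9.50 and 3.05 to 5.37 CPM) and the endothelial and mural markers 0 passed with edgeR, limma after voom or DESeq2. At an unadjusted p below 0.05, 1 oligodendrocyte lineage marker was lower, 2 microglia markers were lower and 1 higher, and 0 endothelial and mural markers passed, where 12.9% of all genes were lower and 12.8% higher. Proliferation markers, at 61.5 to 85.4 and 55.9 to 61.1 CPM, had *Top2a* lower among 6. Beside these marker counts, 4.0% of all genes were lower and 2.48% higher. Of these 14 marker calls, those of *Nefm*, *Slc17a7*, *Lhx6*, *Slc32a1*, *Npy* and *Sst* held in all 17 alternatives. Without shCtrl 2 the adjusted p was 0.0157 for *Map2*, 0.0197 for *Nefl*, 0.0271 for *Rbfox3*, 0.0257 for *Neurod6*, 0.0153 for *Slc17a6*, 0.0531 for *Slc1a2* and 0.0552 for *Top2a*, the last 5 of which missed the threshold without other libraries as well. *Aqp4* missed it with DESeq2 (0.0124) and the robust fit (0.122), and *Slc17a6* with the same settings (0.0425 and 0.168). *Slc1a2* and *Top2a* missed it with library size alone (0.0150 and 0.0125), at least 10 reads in every library (0.0196 and 0.0124) and filterByExpr (0.0158 and 0.0107), *Slc1a2* also with upper-quartile scaling (0.0133) and *Top2a* with the robust fit (0.0109). The part of the make-up of the cultures in the falls of the plexins was not tested.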

How the data were processed

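The authors aligned the reads with STAR 2.7.0d, summed exon reads by gene with featureCounts 1.6.0 and deposited the raw counts, 1 table per library, without normalization. The tables carry GENCODE vM28 identifiers and GRCm39 coordinates, whereas the study's methods name mm10 and M18. Their header shows a command without a strand or read-pair option. Symbols were matched by identifier to GENCODE vM21 (52081 of 55357 genes), from which transcripts and UTRs on GRCm38 were also read.

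Counts were fitted with edgeR 4.0.16 in R 4.3.3 (TMM, glmQLFit and glmQLFTest) on genes that reached 6 reads in some library, with the study's threshold of 0.01. Alternatives were the test the study used, voom in limma 3.58.1, and DESeq2 1.42.0, its size factors, upper-quartile scaling or none beyond library size, filters set to none, to 10 reads in all libraries or by filterByExpr, a robust fit, a block for the replicate number, the threshold 0.05 and the omission of each library. The fits were also run on simulated counts with the same dispersion for every gene and no replicate effect. That run cannot show how the tests behave with the spread of these libraries. Standard errors come from the F statistic.

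The members and gene lists were chosen with earlier results of these data known. Named genes are the plexins, *Pla2g4e*, list members past the threshold, *Nrp1* and *Nrp2*, marker genes past the threshold and the 5 genes most like the plexin of smallest p. *Rras*, *Rap1a* and *Gm26811* were named after their values were seen, and the length of the longest coding transcript was an alternative chosen after seeing the data. Seed matches were read from the study's oligonucleotide sequences.

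Libraries differed by a chi-square per gene of 5.65 to 14.0 within and 17.3 to 34.1 between the groups, and none was a copy of another. In the labels, numbers 1 to 3 recur in both groups. Same-numbered libraries deviated together from their group means (r = 0.391, 0.188 and 0.460 over 10958 genes, against −0.391 to 0.105 for the rest). The numbers were therefore taken to pair the samples in the ratios within replicates and in the replicate block. The main fit and the permutation test did not use this pairing.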

Additional observations from a re-analysis of the deposited data

How the results depend on the processing

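The 17 alternatives each gave 4 lower and 0 higher plexins, and of 153 plexin fold changes under them 148 kept their direction and side of the threshold. The other 5 were signs of small values, namely *Plxna4* at −0.045 without shCtrl 3 and −0.03 without sh*Pla2g4e* 2 (range on leaving out a library −0.045 to 0.19), *Plxnb2* at −0.0057 without sh*Pla2g4e* 2 (−0.0057 to 0.17), and *Plxnb3* at −0.02 without shCtrl 2 and −0.12 without sh*Pla2g4e* 2 (−0.12 to 0.33). DEGs numbered 1419, and 2349 with no filter, 3395 with the replicate block, 2813 at a threshold of 0.05 and 695 to 1613 on leaving out a library, lowest without shCtrl 2 and at 928, 854 and 931 without shCtrl 1, sh*Pla2g4e* 1 and sh*Pla2g4e* 2. With the replicate block (9.02% of all genes lower and 6.50% higher) no plexin call changed. Lower members were then 4 semaphorins, 5 co-receptors, 10 effectors and 9 other guidance receptors. Higher members were 2 semaphorins, 2 co-receptors and 2 other guidance receptors. With a threshold of 0.05 (7.31% lower and 5.55% higher), 4 semaphorins and 4 co-receptors were lower and 2 semaphorins and 2 other guidance receptors higher. No filter (4.23% lower and 3.08% higher) gave 4 co-receptors lower and 2 semaphorins, 1 co-receptor and 2 other guidance receptors higher, and DESeq2 (5.55% lower and 3.14% higher) gave 4 co-receptors lower. Limma after voom, at least 10 reads in every library and filterByExpr gave 0 higher semaphorins. On leaving out a library (2.07% to 4.31% of all genes lower and 1.14% to 3.15% higher), lower co-receptors numbered 2 to 4, lower effectors 3 to 8, lower other guidance receptors 5 to 8, higher semaphorins 0 to 1 and higher other guidance receptors 0 to 2, the last 0 without shCtrl 2, shCtrl 3 or sh*Pla2g4e* 1 and 2 without sh*Pla2g4e* 3. The cause of these shifts was not tested. *Plxnb3* had the fewest reads of the plexins, 82 to 207 per library, and the widest interval.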
